A study of Rattus norvegicus with 8 samples.

Results

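The carbonic anhydrases Car2, Car3, Car4, Car5b and Car14 were examined in the orbital and global layers of extraocular muscle, which turns the eye, from adult rats. Every probe set annotated to exactly 1 of these 5 genes, older symbols included, was taken, which gave 9 of the 15923 probe sets of the array, for 5 of the 10412 genes that have a probe set of their own: 2 each for Car2, Car3, Car5b and Car14, and 1 for Car4. The orbital layer faces the bone of the orbit and the global layer faces the eyeball. Tissue of each layer was cut out with a laser, its RNA was amplified, and 4 orbital and 4 global samples, called captures here, were each hybridised to 1 Affymetrix RAE230A array. No treatment is given for either layer, and the labels name neither strain, sex, exact age nor the number of animals. The titles carry a prefix, R2 or R3, with 2 arrays of each layer under each prefix, and what the prefix stands for is not stated. The orbital R3 arrays, captures 3 and 4, are titled R3OL1 and R3OL1.2, so they may be 1 capture run on 2 arrays, which would leave 3 orbital captures, 1 of them under R3. Over the tested probe sets these 2 arrays differed by 0.46 (root mean square, log2), against 0.43 to 0.45 for the other orbital pairs, and they were counted as 2 with their mean as an alternative. Captures that share an animal would make p-values over captures too small, and the p-values given here measure only the spread between these captures.

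Carbonic anhydrases are zinc enzymes that interconvert carbon dioxide and bicarbonate with a proton. In muscle they ease the exit of carbon dioxide made by mitochondria and buffer the acid that accompanies lactate. The isoforms differ in place: Car2 and Car3 are cytosolic, Car5b is mitochondrial, Car4 is anchored to the outer face of the membrane by a lipid, and Car14 spans the membrane with its active site outside. Car3 is a slow enzyme and is abundant in slow fibres of rat limb muscle and in fat cells, while Car2 is a fast one that red blood cells and glia also carry.

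Values are scaled array intensities, and a difference is the mean log2(intensity + 1) of the orbital minus that of the global captures, given with the standard error (SE), where each layer had n = 4 captures. The 5 genes were chosen because earlier results of these same layers were known, so their layer differences are a description, with no p. Of the 9 probe sets, 5 passed the filter on low values (a mean over all 8 captures of at least the 40th percentile, an intensity of 39.4): both of Car3, both of Car14 and 1 of Car2. The other 4, which are the only one of Car4, both of Car5b and the second of Car2, were too dim to enter the test. A set of 27 bacterial control probe sets marked the low end, and the highest of them read 17.7 to 41.5 across the arrays. The median intensity was 58.8 to 66.3, and all 8 muscle fibre markers examined, Myh13 of extraocular muscle and Acta1 among them, were above the controls in every capture. The Gapdh control's signal at the 3' end over that at the 5' end, which is higher where RNA is more degraded or amplification more 3' biased, was 5.81 to 12.9 in orbital captures and 5.35 to 6.47 in global captures and highest in orbital capture 3. The same measure of beta-actin was 7.87 to 9.16 in orbital and 7.69 to 10.7 in global captures, highest in global capture 4. The part of RNA quality in the values below was not tested. A lower level in a layer can mean fewer cells that make a transcript or less transcript per cell, and bulk RNA cannot tell these apart.

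**Figure D1:**
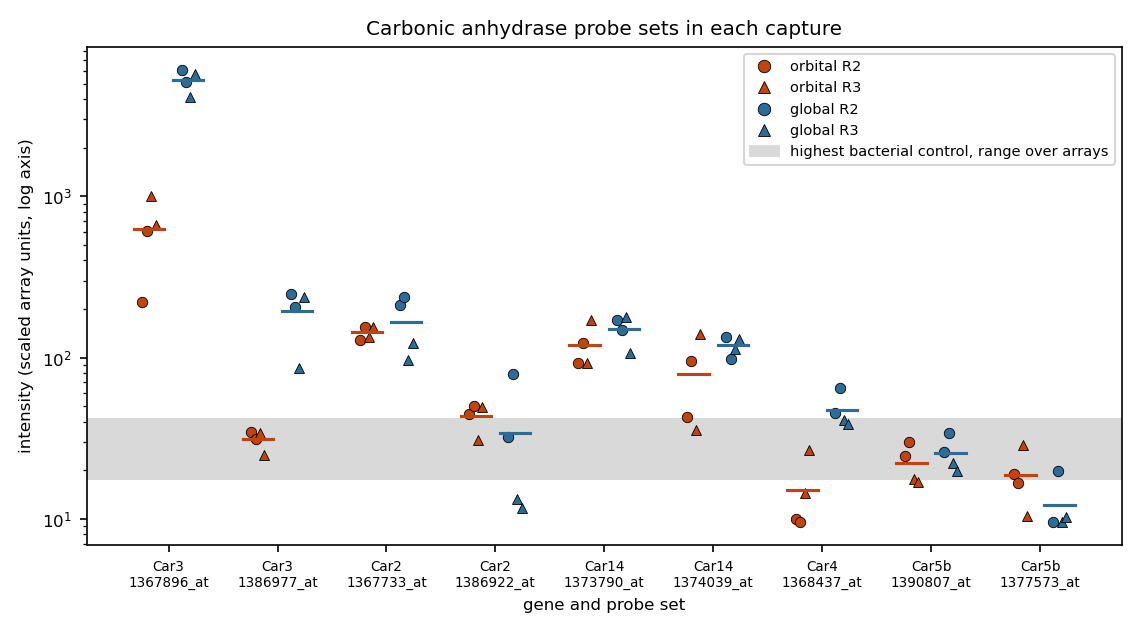
Intensity (log axis) of the 9 carbonic anhydrase probe sets in each capture. Orbital captures stand left of global captures, circles are captures of prefix R2 and triangles of R3, bars are layer means over 4 captures, and the grey band is the range of the highest bacterial control. Car3 separates the layers at both probe sets, and both Car5b probe sets lie in or around the band.

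Car3, the cytosolic isoform of muscle, had by far the widest gap between the layers. At its brighter probe set (1367896_at) the orbital captures read 220.9, 604.8, 1005.9 and 661.8, against 6101.6, 5085.9, 4141.2 and 5693.6 in the global captures. Every orbital capture lay below every global one, and orbital capture 1 was the lowest of all. The means were 623 ± 322 in orbital and 5256 ± 852 in global captures (SD, n = 4 each), a log2 difference of -3.25 ± 0.34 (SE), or 9.50-fold lower in the orbital layer on the log scale. It ranked as number 8 from the bottom among the 9520 probe sets tested. The difference was -3.93 among the R2 captures alone and -2.57 among the R3 captures alone.

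The second Car3 probe set (1386977_at), for which the annotation cites the same sequence record, gave the same direction at a far dimmer signal. It read 34.5, 31.1, 34.2 and 25.0 in the orbital captures, against 246.3, 205.4, 86.5 and 238.0 in the global captures. The layers again did not overlap, and global capture 3, the lowest global capture at the brighter probe set, stood below its own group here too. The log2 difference was -2.50 ± 0.30, with -2.74 among R2 and -2.26 among R3 captures. With a pseudocount of 64 in place of 1 it was -1.38. All 4 orbital values lay under the filter's 39.4, so this probe set entered the test through its global values. The 2 probe sets report on 1 transcript and are not independent. In the layer test, 7.41% of all tested probe sets had an adjusted p under 0.05 (limma with Benjamini-Hochberg adjustment), 3.91% higher and 3.5% lower in the orbital layer, and 2 of the 5 carbonic anhydrase probe sets that entered were counted among them, both of Car3. The genes were chosen on this contrast, so that count is no test of them and nothing is read from it.

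Car3 marks fat cells as well as fibres, so fat markers were read in the same captures. Of 10 adipocyte markers 7 were on the array, and their summed intensity was 325.6 to 586.5 in the orbital and 439.3 to 1030.1 in the global captures. Of the 7, 5 averaged lower in the orbital layer, namely Pck1 (-1.25), Thrsp (-0.997), Fabp4 (-0.74), Plin1 (-0.49) and Cfd (-0.31), while Lipe (0.61) and Lep (0.08) averaged higher. The 3 of them that passed the filter, Cfd, Pck1 and Thrsp, did not pass the layer test (limma, adjusted p = 0.510, 0.0810 and 0.152), and Lep was at or under the controls in every capture. The summed slow fibre markers (8 of 8 on the array) were 17122 to 23283 in the orbital and 19477 to 33647 in the global captures. The summed fast fibre markers (11 of 11) were 36285 to 53078 in the orbital and 61596 to 104820 in the global captures. Of these 11, 10 averaged lower in the orbital layer and 1, Myh2, averaged higher (0.25). The layer test was passed by 6 (limma, adjusted p under 0.05), with the largest falls in Actn3 (-3.75), Mybpc2 (-3.54) and Pvalb (-3.44). The slow markers named next were singled out after their values were seen. Myh7, Tnni1 and Myl2 fell in the orbital layer (log2 differences of -1.84 to -1.13), and Myl3 fell further. Atp2a2, a calcium pump, and Casq2, a calcium store protein, rose (1.19 and 1.01). All 6 of these slow markers passed the layer test (limma, adjusted p under 0.05). Global capture 3, lowest of its layer for Car3, was also lowest of its layer for the adipocyte and slow fibre sums and highest for the fast fibre sum. The part of these cell types in the Car3 difference was not tested.

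The genes whose profile over the 8 captures came closest to that of Car3 were Pvalb, Mybpc2 and Dhrs7c. Closeness was the root mean square difference of log2 values after each profile was centred on its own mean, and it favours genes with a like layer difference. Pvalb, the calcium buffer parvalbumin of fast fibres, was nearest (0.28), then Mybpc2, fast myosin binding protein C (0.37), and Dhrs7c, a dehydrogenase of the sarcoplasmic reticulum (0.46). The median over the other tested probe sets with 1 gene symbol was 1.75. Pvalb averaged 112 ± 52.9 in orbital and 1086 ± 177 in global captures (SD, n = 4 each), and its orbital capture 1 was the lowest as well.

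**Figure D2:**
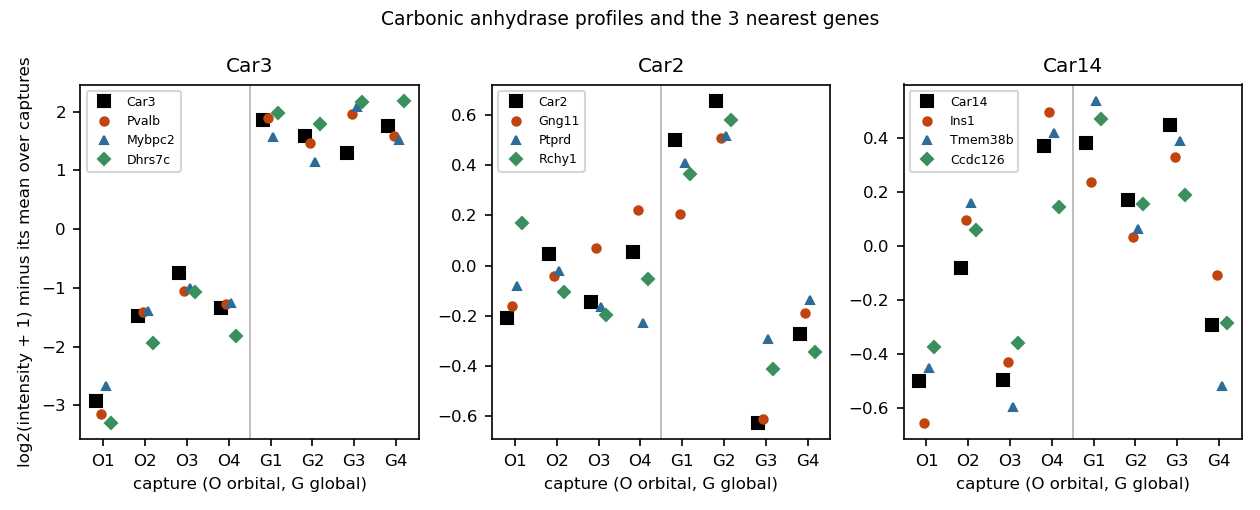
Centred log2(intensity + 1) of Car3 (1367896_at), Car2 (1367733_at) and Car14 (1373790_at) and of the 3 genes nearest to each, in orbital captures 1 to 4 (O) and global captures 1 to 4 (G). The Car3 panel splits by layer, while the highest and lowest Car2 values both lie in the global layer.

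Car2, the fast cytosolic enzyme, did not separate the layers, and its global captures split by title prefix. At the brighter probe set (1367733_at) the orbital captures read 129.0, 154.4, 134.9 and 155.0. The global captures read 211.8 and 236.2 under R2, and 96.4 and 123.6 under R3. The orbital captures thus lay between the global R2 captures above and the global R3 captures below. The means were 143 ± 13.4 in orbital and 167 ± 67.5 in global captures (SD, n = 4 each), a log2 difference of -0.13 ± 0.25. Within R2 the difference was -0.66, and within R3 it was 0.40.

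The dimmer Car2 probe set (1386922_at), which cites the same record, was also higher in both global R2 captures than in both global R3 captures. The orbital captures read 44.4, 49.9, 30.8 and 49.5, against 32.2 and 79.3 in the global R2 captures and 13.3 and 11.7 in the global R3 captures. These last 2 values were at or under the control of their array. The log2 difference was 0.73 ± 0.53 over all captures, -0.10 within R2 and 1.57 within R3. So the 2 Car2 probe sets had opposite signs over all captures, each with a difference smaller than 2 SE.

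Whether the layer difference itself differed between the prefixes was tested, since the choice of genes did not use the prefix. The difference in R3 minus that in R2 was 1.06 ± 0.31 for Car2 at 1367733_at (limma interaction term, unadjusted p = 0.00625, adjusted p = 0.9999 with Benjamini-Hochberg adjustment). It was 1.35 ± 0.55 for Car3 at 1367896_at (unadjusted p = 0.0336), and 0.49 ± 0.59 at 1386977_at (unadjusted p = 0.426). For Car14 it was 0.43 ± 0.47 at 1373790_at and 0.06 ± 0.78 at 1374039_at. None of the 5 tested probe sets passed after adjustment, and neither did any of the 9520 (0%), where 3.05% had an unadjusted p under 0.05. The design had 2 arrays per layer and prefix. With orbital captures 3 and 4 averaged the Car2 value was 1.06 ± 0.35. Of all tested probe sets 2.96% had, like Car2, both orbital captures above both global ones under one prefix and below them under the other.

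Red blood cells and glia carry Car2, so their markers were read beside it. Of 10 erythrocyte markers 6 were on the array. Their summed intensity was 549.9, 763.2, 325.4 and 520.2 in orbital captures 1 to 4, and 557.2, 1347.5, 313.3 and 450.7 in global captures 1 to 4. Within the global layer these sums were higher in both R2 captures than in both R3 captures, as for Car2, and orbital capture 3 was the lowest of the orbital layer. Hbb, the beta globin, was the brightest of the 6 in every capture, so it weighs most in the sum. Hbb and Slc4a1 had this order of global captures, while Alas2, Car1, Ahsp and Rhag did not. Alas2 read 89.4 and 141.7 in the global R2 captures and 60.4 and 120.0 in the global R3 captures. Hbb differed by 0.01 between the layers. The Schwann cell and myelin sum (7 of 9 markers on the array) was 2617.9, 5405.0, 2995.1 and 2816.1 in orbital captures 1 to 4, and 1898.3, 2135.7, 1372.3 and 4995.7 in global captures 1 to 4. Its highest global value was thus in capture 4, where Car2 was low. Pmp22 was the brightest of these 7 in every capture and weighs most in the sum. Of the 7, 6 averaged higher in the orbital layer and 1, Mal, averaged lower (-0.37). Of the 6 that were tested 1, Cnp, passed the layer test (0.84, limma, adjusted p = 0.0140). The part of these cells in the Car2 values was not tested. The nearest profile to Car2 was that of Gng11, a G protein gamma subunit (0.16, against a median of 0.48), followed by Ptprd and Rchy1 (0.18 each).

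**Figure D3:**
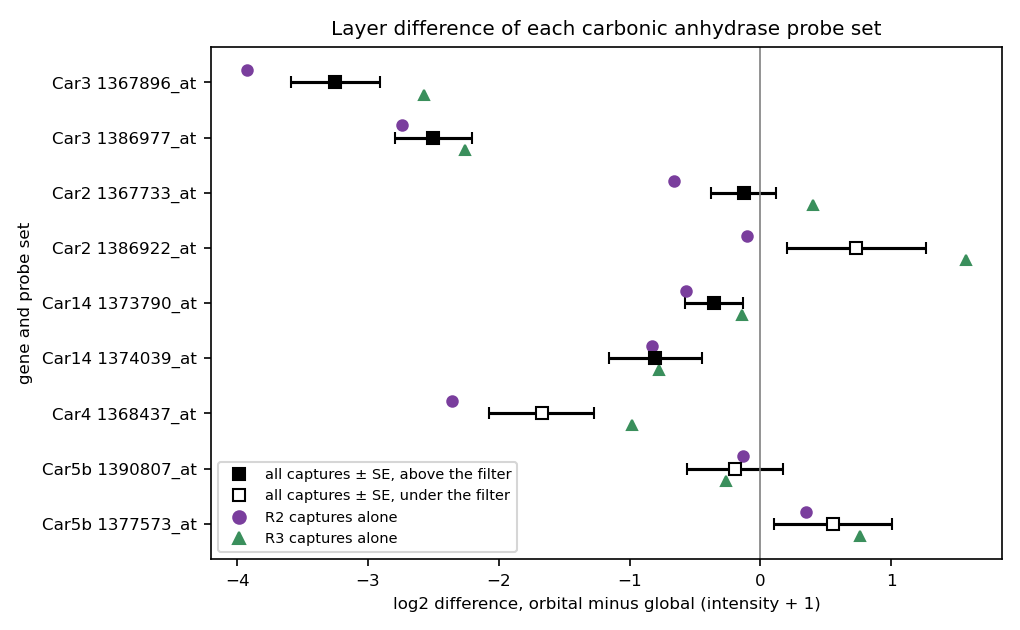
Log2 difference of the orbital minus the global layer for each carbonic anhydrase probe set (squares with SE, filled where the probe set passed the filter on low values), with the difference among R2 (circles) and R3 captures (triangles) alone. Both Car3 probe sets, both Car14 probe sets and Car4 lie below 0 under each prefix, and Car2 at 1367733_at lies at -0.66 under R2 and 0.40 under R3.

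Car14, the membrane-spanning isoform, averaged lower in the orbital layer at both probe sets, with layers that overlapped. At 1373790_at the orbital captures read 92.2, 123.7, 92.5 and 169.8, against 171.1, 147.6, 179.0 and 106.7 in the global captures. Orbital capture 4 stood among the global values and global capture 4 among the orbital ones. The means were 120 ± 36.6 in orbital and 151 ± 32.5 in global captures (SD, n = 4 each), a log2 difference of -0.35 ± 0.22.

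At 1374039_at, for which the annotation cites another sequence record, Car14 read 42.9, 95.6, 35.4 and 140.8 in the orbital captures, against 134.5, 98.1, 113.6 and 130.9 in the global captures. Orbital captures 1 and 3 were low at both probe sets, and orbital capture 4 was the highest of its layer at both. The log2 difference was -0.80 ± 0.36, and -0.83 under R2 and -0.78 under R3. This difference moved with single captures: it was -1.15 ± 0.30 without orbital capture 4 and -0.50 ± 0.32 without orbital capture 3, and that at 1373790_at was -0.54 ± 0.21 without orbital capture 4. The retina holds Car14 too, and the summed photoreceptor markers (6 of 8 on the array) were 467.5 to 2135.9 in the orbital and 62.7 to 1093.4 in the global captures. All 6 averaged higher in the orbital layer, and of the 4 that were tested 0 passed the layer test (limma). Pigment epithelium and Müller glia markers (5 of 8 on the array) summed to 2524 to 3293 in the orbital and 2187 to 5971 in the global captures. Of these 5, 4 averaged higher in the orbital layer and 1, Glul, averaged lower (-0.82). Glul was the brightest of them in every capture, so it weighs most in the sum. Ttr and Rpe65 of this list were highest in global capture 1 (2170.9 and 361.7). Of the 3 of this list that were tested 0 passed the layer test (limma). The part of retinal cells in Car14 was not tested. The profiles nearest to Car14 were those of Ins1, Tmem38b (0.14 each) and Ccdc126 (0.15), against a median of 0.47. Tmem38b is an ion channel of the endoplasmic reticulum, and Ins1 was dim, with 51.7 ± 19.1 in orbital and 59.0 ± 8.19 in global captures (SD, n = 4 each).

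Car4, the lipid-anchored isoform of capillary walls and of the fibre membrane, was dim but did not overlap between the layers. The orbital captures read 10.0, 9.5, 14.4 and 26.7, against 45.4, 64.7, 41.0 and 38.7 in the global captures. Orbital captures 1, 2 and 3 and global capture 4 were at or under the highest control of their array. The log2 difference was -1.67 ± 0.40, with -2.36 under R2 and -0.98 under R3. Its size rests on signal near background: with a pseudocount of 16 it was -1.04 and with 64 it was -0.49. Over all 15866 probe sets that are not controls, the layers did not overlap for 10.3% (14.1% of those tested). Among the 9 carbonic anhydrase probe sets they did not overlap for 3, those of Car3 and Car4. The genes were chosen on this contrast, so nothing is read from that count. Capillary endothelium markers (9 of 12 on the array, 8 above the controls in every capture) summed to 1272 to 1862 in the orbital and 1245 to 1410 in the global captures. Of the 9, 8 averaged higher in the orbital layer and 1, Cldn5, averaged lower (-0.23). Eng, an endothelial receptor, was the 1 that passed the layer test (1.29, limma, adjusted p = 0.0193). It was also the 1 not above the controls in every capture, with 33.6 in global capture 4 against a control of 41.5. The part of capillary content in the Car4 values was not tested.

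The stretches before the start of Car14 and Car4 are shown because both genes averaged lower in the orbital layer at every probe set and are annotated with a promoter. They are the 250 bases before the RefSeq start in the GRCr8 assembly, at chr2:186138165-186138414 on the minus strand for Car14 and chr10:70325108-70325357 on the plus strand for Car4. Capitals mark matches to CANNTG, the E-box that myogenic factors and many other proteins can bind.
Car14: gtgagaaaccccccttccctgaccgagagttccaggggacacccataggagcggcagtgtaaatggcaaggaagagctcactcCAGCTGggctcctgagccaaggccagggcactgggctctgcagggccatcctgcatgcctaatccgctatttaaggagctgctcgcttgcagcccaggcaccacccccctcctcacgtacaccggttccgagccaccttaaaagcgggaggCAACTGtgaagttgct
Car4: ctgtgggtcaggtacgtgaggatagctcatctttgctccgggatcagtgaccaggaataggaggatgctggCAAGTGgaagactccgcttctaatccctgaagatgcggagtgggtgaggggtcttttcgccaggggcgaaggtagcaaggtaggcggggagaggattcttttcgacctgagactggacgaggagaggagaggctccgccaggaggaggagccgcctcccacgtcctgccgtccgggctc
Car14 holds 2 matches, at bases -167 to -162 and -16 to -11 counted from the start, and Car4 holds 1, at -179 to -174. An E-box match stood in 65.5% of the 33469 rat promoters of this length, so such matches are common. On either strand neither sequence held TATAAA (12.9% of promoters), CCAAT (34.0%), GGGCGG (30.5%) or the binding motif of MEF2, a muscle transcription factor (2.96%). The bases are 60.4% G or C in both, against a median of 51.2%. A promoter was matched for 3 of the 5 genes, Car4, Car5b and Car14, and not for Car2 and Car3. In the RefSeq gene order Car2 and Car3 are neighbours on chromosome 2, with Car1 next to Car3, while Car14 lies elsewhere on that chromosome, Car4 on chromosome 10 and Car5b on X.

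Car5b, the mitochondrial isoform, gave no signal clearly above the controls. At 1390807_at the orbital captures read 24.5, 30.0, 17.7 and 17.0, against 26.1, 33.9, 22.3 and 19.7 in the global captures. At 1377573_at they read 18.9, 16.7, 28.7 and 10.4 in the orbital and 9.5, 19.7, 9.5 and 10.2 in the global captures. The layers overlapped at both, and all 4 global captures were at or under the control at 1377573_at. The log2 differences, -0.19 ± 0.37 and 0.56 ± 0.45, had opposite signs, and a layer difference of Car5b was not detectable at these intensities.

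The rest of the family was present as 7 probe sets, 1 each for Car1, Car5a, Car6, Car7, Car8, Car10 and Car11, of which Car7 alone passed the filter. Car7, a cytosolic isoform known from brain and muscle, read 76.8, 86.7, 58.1 and 79.0 in the orbital captures, against 53.3, 58.4, 36.8 and 71.7 in the global captures. These layers overlapped, and the log2 difference of 0.47 ± 0.24 did not pass (limma, adjusted p = 0.280). Car1, the second cytosolic isoform of red blood cells, was dim, with 6.3, 7.2, 6.5 and 2.7 in the orbital captures, against 44.1, 44.8, 7.5 and 45.6 in the global captures. Global capture 3 stood with the orbital captures for Car1, and it was also the lowest global capture at both Car3 probe sets. The Car1 difference was -2.24 ± 0.60 without a test, since the probe set was under the filter and its orbital values were all under the controls. Of the other red cell genes, Hbb and Alas2, above the controls in every capture, each differed by 0.01, Ahsp by -2.16, Slc4a1 by -0.46 and Rhag by 1.35, the last 3 dim and under the filter. The part of red cells in the Car1 values was not tested.

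Carbonic anhydrases work together with carriers of bicarbonate, protons and lactate, and 6 lists of 84 such genes were read by the brightest tested probe set of each gene. The lists were chosen with earlier results of these data known, so their counts and calls are no independent test. Of the 84, 63 were on the array and 38 were tested, of which 3 rose, 2 fell and 33 did not pass. Among all 7163 tested genes 7.68% passed, 4.09% rising and 3.59% falling. The median log2 difference was 0.05 in the lists and 0.02 over all genes.

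**Figure D4:**
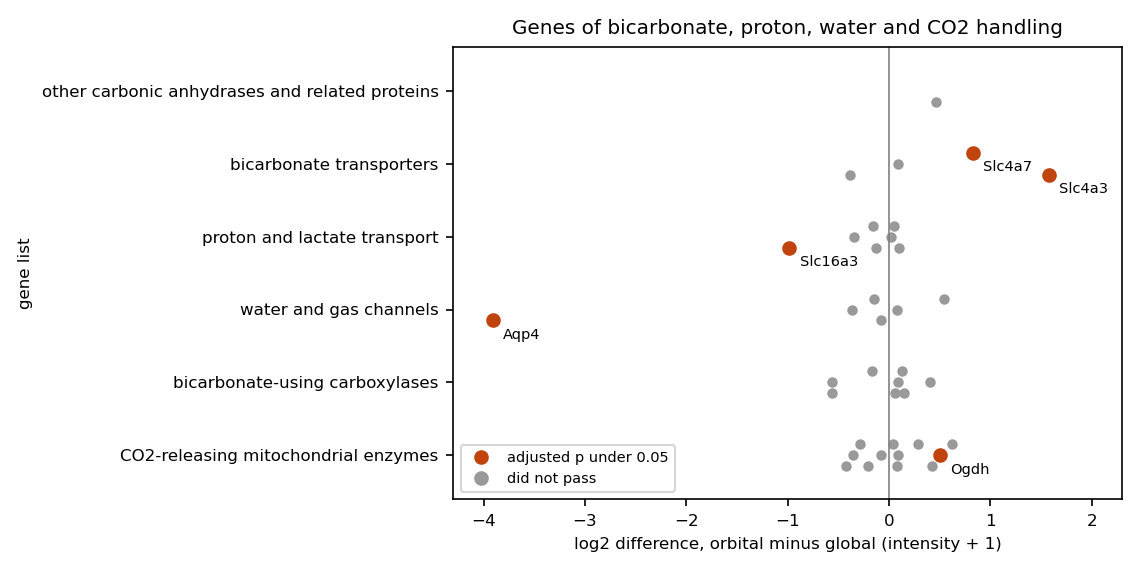
Log2 difference of the orbital minus the global layer for each tested gene of the 6 lists, by its brightest tested probe set, filled in orange where the adjusted p was under 0.05. Slc4a3, Slc4a7 and Ogdh lie to the right and Slc16a3 and Aqp4 to the left.

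Among the bicarbonate transporters 2 of 4 tested genes rose in the orbital layer. Slc4a3, a chloride-bicarbonate exchanger of heart and other excitable tissues, read 265.9, 299.7, 263.7 and 325.8 in the orbital captures, against 84.9, 100.8, 88.5 and 111.5 in the global captures. No orbital capture came near a global one, and the log2 difference was 1.58 ± 0.15 (limma, adjusted p = 4.44e-05). Over the 22 alternatives it stayed past the threshold, with differences of 1.14 to 1.65. Slc4a7, a sodium-bicarbonate cotransporter, read 399.3, 526.8, 397.6 and 460.5 in the orbital captures, against 298.5, 263.1, 209.2 and 235.8 in the global captures (0.83 ± 0.15, adjusted p = 0.00384). Its second, dimmer probe set did not pass (-0.06, adjusted p = 0.906), so the 2 probe sets of Slc4a7 disagree. Slc4a4, the electrogenic cotransporter, differed by -0.38 ± 0.32 (adjusted p = 0.533), and Slc4a2, a chloride-bicarbonate exchanger, by 0.09 ± 0.27 (adjusted p = 0.890).

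In the list of proton and lactate transport 1 of 7 tested genes fell and 0 rose. Slc16a3, the carrier by which glycolytic fibres export lactate with a proton, read 114.3, 124.0, 87.7 and 182.9 in the orbital captures, against 281.4, 196.6, 242.0 and 264.3 in the global captures. The layers did not overlap (-0.98 ± 0.21, limma, adjusted p = 0.0104). Slc16a1, the lactate carrier of oxidative cells, differed by 0.02 ± 0.15 (adjusted p = 0.948), and Bsg, the chaperone of both carriers, by 0.10 ± 0.16 (adjusted p = 0.774). These 2 were chosen after their values were seen. By the naming rule, Emb, a chaperone of lactate carriers, differed by -0.34 and the sodium-proton exchangers Slc9a8 and Slc9a2 by -0.13 and -0.15, none past the threshold.

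Of 6 tested water and gas channels 1 fell and 0 rose. Aqp4, the water channel of fast fibres, read 42.5, 68.4, 66.8 and 108.2 in the orbital captures, against 1217.4, 746.2, 1347.5 and 931.8 in the global captures (-3.91 ± 0.25, limma, adjusted p = 7.59e-06). Its other 2 probe sets were under the filter and at or under the control of their array in 4 and 7 of 8 captures, so nothing is read from them. Aqp1, a channel of capillary walls that also passes carbon dioxide in red cells, averaged 303 ± 95.0 in orbital and 202 ± 32.1 in global captures (SD, n = 4 each) and did not pass (0.55 ± 0.21, adjusted p = 0.146). Without orbital capture 2 it did (0.74, adjusted p = 0.0394). Rhd differed by -0.37 and Aqp8 by -0.15 without passing.

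Enzymes that consume bicarbonate passed in 0 of 8 tested genes in either direction (limma). At an unadjusted p under 0.05, which 21.9% of all tested genes had, stood 14 of the 38 genes of all lists: 6 of 12 enzymes that release carbon dioxide, 3 of 6 water and gas channels, 2 of 4 bicarbonate transporters, 2 of 8 carboxylases, 1 of 7 in proton and lactate transport and 0 of 1 other carbonic anhydrase. The 2 carboxylases were Acaca, the cytosolic acetyl-CoA carboxylase of fat synthesis (-0.56 ± 0.19, limma, adjusted p = 0.0904), and Pc, pyruvate carboxylase, a mitochondrial user of bicarbonate (-0.56 ± 0.23, adjusted p = 0.182). Without orbital capture 2 Acaca passed (-0.72, adjusted p = 0.0261). Cad differed by 0.41 and Pccb by 0.15. Of 12 tested mitochondrial enzymes that release carbon dioxide 1 rose and 0 fell. That was Ogdh, of the oxoglutarate dehydrogenase complex, with 858 ± 27.3 in orbital and 612 ± 106 in global captures (SD, n = 4 each; 0.50 ± 0.13, adjusted p = 0.0361). Its call held in 11 of 22 alternatives and was lost on leaving out any capture but global capture 3 (adjusted p 0.0635 to 0.0913). With orbital captures 3 and 4 averaged it was lost too (adjusted p = 0.0603). Idh2, mitochondrial isocitrate dehydrogenase, differed by 0.42 (adjusted p = 0.0720) and passed with quantile normalization (0.00487), cyclic loess (0.00936) and the prefix as a fixed replicate block (0.0438). Idh3b differed by -0.43 and Bckdha by 0.62 without passing. Idh3a (-0.35) and Pdha1 (-0.29), named after their values were seen, did not pass either (limma, adjusted p = 0.181 and 0.196). So the 6 enzymes at an unadjusted p under 0.05 went both ways: Ogdh, Idh2 and Bckdha averaged higher in the orbital layer, and Idh3b, Idh3a and Pdha1 lower.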

How the data were processed

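Per the labels, captured RNA of both layers (4 orbital and 4 global captures) underwent T7 amplification before 1-colour RAE230A hybridisation. The deposited table holds 1 linear intensity per probe set and array. The summarising and scaling software was not given in the sources used here. Array means trimmed by 2% lay within 0.0039% of each other, so each array was already scaled when deposited, and nothing more was normalized. A scaled level is relative to its array's total, and amplification can change relative levels.

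Groups came from the source given in the labels, and captures were numbered in accession order within a layer. After removal of 57 control probe sets from 15923, the test took the 9520 with a mean log2(intensity + 1) at or above the 40th percentile. Layer was the only term of a limma 3.58.1 fit in R 4.3.3 (lmFit, trended eBayes), with Benjamini-Hochberg adjustment over all tested probe sets and a threshold of 0.05, and a second fit held the interaction of layer and title prefix. The fits were tested on simulated data. Gene symbols are those of GEO's platform annotation: 12783 probe sets had 1 symbol, 312 several and 2771 none. Of the 12783, 12748 were found in the RefSeq gene list, where 0 had another symbol, and symbols of the rest may be outdated. Promoter sequences are from RefSeq (GRCr8).

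The 5 genes, the lists and the tests were chosen with earlier results of these data known. Named genes were all 9 probe sets of the 5 genes, in each list every gene that passed and the 4 with the smallest p (genes that passed counted among the 4), and the 3 genes nearest in profile, or 2 with layer means removed. The alternatives tried were a pseudocount of 16 or 64, dropping the filter or raising it to the 60th percentile, cyclic loess or quantile normalization, eBayes without trend and robust, array weights, a random or fixed block for the prefix, each prefix alone, orbital captures 3 and 4 averaged because of their near-identical titles, and each capture left out. The number of arrays limits the precision.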

Additional observations from a re-analysis of the deposited data

Results flagged for a closer look

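The layer difference of Car2 at 1367733_at ran in opposite directions under the title prefixes: both orbital captures lay below both global captures under R2 and above them under R3, and the difference in R3 minus that in R2 was 1.06 on the log2 scale. The interaction term did not pass after adjustment. Global capture 2 lay apart from the other 3 global captures at the dim Car5b probe set 1377573_at (intensity 19.7, above the others) and for Cad (32.4, below the others). Over the 60 groups examined chance alone flags about 1 in 20.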

How the results depend on the processing

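No log2 difference of Car3, Car14, Car4 or Car5b changed sign in any of the 22 alternatives. That of Car2 at 1367733_at kept its sign in 19 of 22 and that at 1386922_at in 21 of 22. The alternatives of filter, eBayes setting and replicate block leave a log2 difference as it is and alter only its SE or the probe sets tested. Those alternatives could not change a sign, so the counts overstate how far the signs were tried. With a pseudocount of 16 the Car4 difference was -1.04, and with 64 it was -0.49 and that of Car3 at 1386977_at -1.38. With R2 captures alone the differences were -3.93 for Car3 at 1367896_at, -0.66 for Car2 at 1367733_at and -2.36 for Car4, and with R3 captures alone -2.57, 0.40 and -0.98. The prefix alone leaves 2 captures per layer: 106 probe sets passed under R2 and 166 under R3, against 705, and 1 listed gene rose and 1 fell under each. Slc4a7 and Slc16a3 lost their calls under R2 alone (adjusted p = 0.185 and 0.114) and R3 alone (0.0551 and 0.175). Leaving out 1 capture gave 468 (without global capture 3) to 726 probe sets. The interaction passed for 0 to 1 probe sets, the 1 without global capture 4. Of the carbonic anhydrase probe sets 1 passed with the 60th percentile filter, under which the dimmer Car3 probe set was not tested, 3 without a filter (Car4 being the third) and 3 without orbital capture 4 (Car14 at 1374039_at). The genes were chosen on this contrast, so these counts test nothing. With orbital captures 3 and 4 averaged 608 probe sets passed, and the differences were -3.44 and -2.47 for Car3, -0.13 for Car2 at 1367733_at, -0.39 and -0.83 for Car14 and -1.83 for Car4. With the prefix as a replicate block 745 (fixed) and 651 (random) probe sets passed, and the same count of 2 carbonic anhydrase probe sets. Deviations of R2 captures from their layer means correlated with r = 0.161 between layers across probe sets, so the labels and data do not settle whether the prefix pairs captures. Signal near the controls limits Car4, Car5b and the dimmer Car2 probe set.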

Other observations

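With the layer means removed, so that the spread among captures of a layer alone counts, the profile nearest to Car3 at 1367896_at was that of Myl3, which encodes a myosin light chain of slow fibres and heart (root mean square difference of 0.13, median over other probe sets 0.62), followed by Dhrs7c (0.21). For Car2 at 1367733_at they were Gng11 (0.13) and Rbmx (0.14, median 0.45), and for Car14 at 1373790_at Nsmce3 (0.11) and Rbms1 (0.13, median 0.40). These are descriptions over 8 captures of the same arrays.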
